A study of Mus musculus with 2 samples.

Results

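The nuclei described here were chosen by RNA as anterior streak and definitive endoderm, and they numbered 350 of the 15341 barcodes of a single-nucleus multiome of mouse embryos. A multiome reads nuclear RNA and open chromatin from the same nucleus, so each barcode carried RNA counts and counts in accessibility peaks. A barcode was eligible with 3000 to 30000 RNA UMIs (unique molecular identifiers, each standing for 1 captured RNA molecule), at least 2000 peak counts and 0 UMIs of Noto, Shh and Foxj1, genes of the node, the notochord and motile cilia. Of the 11605 barcodes in that depth range, 10903 passed the gate of those 3 genes. Each was scored by the mean of ln(1 + UMIs per 10000) over 7 added genes (Pax7, Cer1, Scel, Samd3, Pdzrn4, Lgr5 and Cadps2) less the same mean over 3 subtracted genes (Cubn, Sfrp5 and Hkdc1). The 350 highest scores, 3.02% of the depth range, are called the members below, and the 11255 other barcodes in the depth range are called the others.

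The score had no step at the last member. Members ranged from 0.350 to 1.46 with a median of 0.595, while the median of the others was -0.211. The nuclei ranked 346 to 350 scored 0.355 to 0.350, and those ranked 351 to 355, just outside, scored 0.346 to 0.343. Within 0.05 of the last member's score lay 43 nuclei above and 50 below, so the members are a range of a score and not a separate class. A further 80 barcodes scored at least as high but failed the gate.

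Both libraries came from embryos at embryonic day 7.0 that had been pooled before dissociation with TrypLE, with 1 library for each assay. All barcodes carried 1 library suffix, so no nucleus could be tied to an embryo, and the study had no replicate. No test or p-value is therefore given: intervals in brackets are exact 95% intervals that cover counting error only, and a gene or peak was called when the groups differed at least 2-fold. The label entries conflicted, since the titles, the age and the protocol gave E7.0 embryos while the other entries gave goblet cells, a section of the small intestine or the distal colon, and the strain RedMUC298trTg. The samples were taken as the titles give them. In the members, the goblet cell genes Muc2 (a mucin) and Tff3 (a trefoil peptide) had 0 UMIs, and 9 goblet and intestinal genes summed to 17.98 UMIs per 1000000 (CPM) against 49.3 in the others. Cdx2, also listed for streak and extraembryonic ectoderm, made up 6.16 and 18.9 CPM of these sums. Agr2 of the same list had 2 UMIs in members. The promoters of Agr2 and Spdef were more accessible in members (3.60-fold and 2.61-fold), and that of Vil1 less (0.256-fold).

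The whole series summed to 182201512 UMIs over 32285 genes and 273131304 counts over 229480 peaks. Members had a median of 10398 UMIs (3092 to 29854) and 19546 peak counts, against 11389 UMIs and 19476 peak counts in the others. Scrublet, which scores barcodes for likeness to simulated mixtures of 2 nuclei, marked 16 members (4.57%) and 707 others (6.28%), and these were kept. Smaller sets of non-members served as comparisons. They were 212 node and ciliated axial nuclei (at least 2 UMIs of Noto, Shh and Foxj1 together) and 350 nuclei each of visceral endoderm, primitive streak and extraembryonic ectoderm, taken as the highest means of short gene lists. The node set also held 488 CPM of Cubn, a visceral endoderm receptor, against 45.7 in the members and 8960 in the visceral endoderm set. Median depth was 12595.5 UMIs in the node set, 13623 in visceral endoderm, 10875 in primitive streak and 13920.5 in extraembryonic ectoderm.

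During gastrulation, epiblast cells move through the primitive streak, and those that leave at its anterior end form the definitive endoderm, the prechordal plate, the node and the notochord. Definitive endoderm cells enter the outer layer of visceral endoderm and later line the gut, and the anterior axial tissues secrete antagonists of Nodal, Wnt and BMP that pattern the head. Foxa2, Sox17, Gsc, Hhex, Lhx1, Eomes and Mixl1 encode transcription factors of this region, and high Nodal signalling is known to favour endoderm over other streak fates. Cer1, Hhex, Lefty1, Otx2 and Dkk1 are also known from the anterior visceral endoderm, a separate layer with a similar signalling role, so these genes alone do not name a tissue.

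The promoters below are shown because accessibility, which the score did not use, was read at them and differed between members and others. Each is the 250 bases before a RefSeq start of build GRCm38.p6, written from 5′ to 3′ on the strand of the gene. Capitals mark matches to the motifs listed with the promoter results, and a match is a description of the letters and not a binding site. Cer1 lies at chr4:82885152-82885401 (minus strand), Samd3 at chr10:26229457-26229706 (plus), Scel at chr14:103513091-103513340 (plus), Gsc at chr12:104473237-104473486 (minus) and Prdm1 at chr10:44458749-44458998 (minus). The capitals are an LHX and a ZIC match in Cer1, a T-box and a GATA match in Samd3 and a FOX match in Prdm1, with none in Scel and Gsc.
Cer1: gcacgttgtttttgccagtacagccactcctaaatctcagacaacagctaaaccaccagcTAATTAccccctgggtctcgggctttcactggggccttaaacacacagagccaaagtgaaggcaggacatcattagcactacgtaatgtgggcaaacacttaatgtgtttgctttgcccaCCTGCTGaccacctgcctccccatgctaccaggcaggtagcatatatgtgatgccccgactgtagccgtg
Samd3: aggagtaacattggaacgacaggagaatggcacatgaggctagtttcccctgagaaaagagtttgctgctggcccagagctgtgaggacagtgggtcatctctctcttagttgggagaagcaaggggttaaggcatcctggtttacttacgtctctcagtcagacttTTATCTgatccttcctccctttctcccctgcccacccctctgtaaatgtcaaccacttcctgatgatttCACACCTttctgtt
Scel: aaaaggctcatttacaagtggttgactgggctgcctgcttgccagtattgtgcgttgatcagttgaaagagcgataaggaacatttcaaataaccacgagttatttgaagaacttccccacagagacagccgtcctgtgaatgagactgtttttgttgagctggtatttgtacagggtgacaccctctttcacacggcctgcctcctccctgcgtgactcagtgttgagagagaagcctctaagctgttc
Gsc: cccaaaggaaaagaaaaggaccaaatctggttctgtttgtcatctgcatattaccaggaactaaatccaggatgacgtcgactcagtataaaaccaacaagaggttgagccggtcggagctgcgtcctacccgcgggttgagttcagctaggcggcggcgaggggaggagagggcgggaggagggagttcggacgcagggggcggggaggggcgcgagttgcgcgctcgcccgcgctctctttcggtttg
Prdm1: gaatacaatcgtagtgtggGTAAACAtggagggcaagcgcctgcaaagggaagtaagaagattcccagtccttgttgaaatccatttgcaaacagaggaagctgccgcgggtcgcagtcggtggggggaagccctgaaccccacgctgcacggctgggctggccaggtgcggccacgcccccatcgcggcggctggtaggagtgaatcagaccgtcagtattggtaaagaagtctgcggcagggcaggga

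Level of the 10 score genes was set by the choice of nuclei and is given as a description. Cer1 (ENSMUSG00000038192; chromosome 4, start 82885148), a secreted antagonist of Nodal and BMP, had 409 CPM in members and 24.7 CPM in the others. Over single members it ranged from 0 to 25.3 UMIs per 10000 with a median of 2.95, so some chosen nuclei showed none of it. Cadps2 (ENSMUSG00000017978; chromosome 6), a protein of vesicle release, had 500 against 28.8 CPM, and Lgr5 (ENSMUSG00000020140; chromosome 10), a receptor for R-spondins that enhance Wnt signalling, 312 against 24.2 CPM. Their medians over members were 3.41 and 1.20 UMIs per 10000, with highest values of 29.6 and 32.1. Pdzrn4 (ENSMUSG00000036218) had 110 against 7.65 CPM, Samd3 (ENSMUSG00000051354) 86.5 against 5.65 and Scel (ENSMUSG00000022123), which encodes sciellin, 55.7 against 2.41. Pax7 (ENSMUSG00000028736; chromosome 4, starts 139833007 to 139833528), a transcription factor best known from muscle stem cells and neural crest, had 44.9 against 0.933 CPM on 175 UMIs. It was too rare over all barcodes to pass the filter on low counts, which asked for 10 expected UMIs in the members, so 6 of the 7 added genes were tested. No other Pax gene passed that filter, and Pax1 and Pax4 had 0 UMIs.

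No member needed all 7 added genes to be chosen. At full depth 10 members had a UMI of all 7, 110 had 4 of them, which was the commonest number, and 4 had only 1. With each nucleus thinned to 3000 UMIs, which takes depth out of the comparison, Cadps2 was seen in 60.9% of members (81.4% unthinned), Cer1 in 57.4% (80.0%), Lgr5 in 41.7% (62.0%) and Pax7 in 11.4% (28.9%). The thinned shares in extraembryonic ectoderm nuclei, which should lack these genes, were 0.857% for Cadps2, 3.14% for Cer1, 0.286% for Lgr5 and 0 of 350 nuclei for Pax7.

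To describe each score gene without its own help, nuclei were ranked again by the other 9 genes and the omitted gene was read in the 350 highest. All 7 added genes were higher there than in the remaining barcodes. Pax7 was 31.2-fold higher [24.8 to 39.3] (36.5 against 1.17 CPM), Scel 16.6-fold [13.8 to 19.9] and Cadps2 12.2-fold [11.5 to 12.9]. Samd3 was 11.6-fold higher [10.1 to 13.3], Pdzrn4 11.1-fold [9.84 to 12.5], Cer1 10.3-fold [9.60 to 10.98] (289 against 28.2 CPM) and Lgr5 8.39-fold [7.79 to 9.02] (222 against 26.4 CPM). The subtracted genes were lower there. Cubn was 10.99-fold lower [10.1 to 11.97], Sfrp5, a secreted Wnt antagonist, 2.10-fold lower [1.35 to 3.45] and Hkdc1, a hexokinase-like enzyme, 1.68-fold lower [1.29 to 2.23]. The re-ranked nuclei kept most members, from 282 without Cubn to 334 without Pax7 or Scel, so these values still describe largely the same nuclei. The score genes were also chosen together, with earlier results of these data known, so these directions are no independent support for the group.

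**Figure D1:**
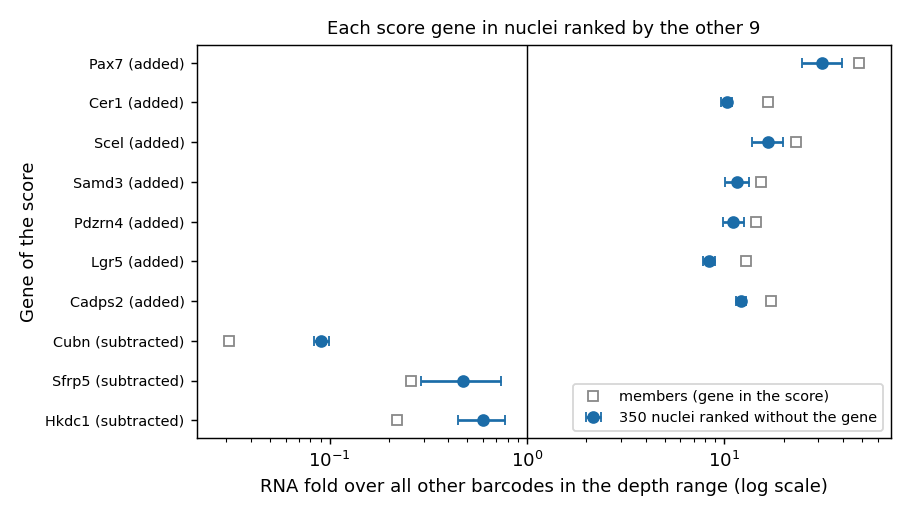
RNA fold over all other barcodes in the depth range (log scale) for each of the 10 score genes, in the members (open squares) and in the 350 nuclei ranked by the other 9 genes (filled points, with exact 95% intervals for counting error). Every filled point lies on the same side of 1 as its square and nearer to 1, with Pax7 farthest to the right at 31.2 and Cubn farthest to the left.

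Across 12940 genes tested, 349 were at least 2-fold higher in members (2.7%) and 1113 at least 2-fold lower (8.6%). The median log2 fold of all tested genes was -0.09. RNA chose the members, so the following RNA values describe what these nuclei carry besides the score genes, and no count in them is read against chance.

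Transcription factors of the anterior streak and endoderm were the list with the most genes called higher. Of 17 factors, all tested, 11 were at least 2-fold higher and 3 lower, beside 2.7% and 8.6% of all tested genes. The median log2 fold of the list was 1.80, and it summed to 3451 CPM in members and 994 in the others. Hhex (ENSMUSG00000024986), a homeobox factor of anterior endoderm and later of liver and thyroid, had 148 against 15.5 CPM, or 9.58-fold [8.72 to 10.5]. Gsc (ENSMUSG00000021095), the homeobox factor of the organizer, had 238 against 32.1 CPM, or 7.41-fold [6.90 to 7.95]. Sox17 (ENSMUSG00000025902), needed for definitive endoderm, had 199.5 against 29.3 CPM, or 6.82-fold [6.31 to 7.37]. Lhx1 (ENSMUSG00000018698), a LIM homeobox factor of the anterior streak and head organizer, had 1355 against 237 CPM, or 5.71-fold [5.55 to 5.88]. It was the most widely seen factor of the list, with a median of 11.4 and a highest value of 43.6 UMIs per 10000 over members. Foxa2 (ENSMUSG00000037025), the forkhead factor shared by endoderm, node and notochord, had 158 against 29.7 CPM, or 5.33-fold [4.89 to 5.80]. Gata6 (ENSMUSG00000005836), a zinc finger factor of endoderm and heart, was 4.91-fold higher [4.65 to 5.18], Foxa1, a relative of Foxa2, 4.71-fold, Prdm1, a repressor known from germ cells and endoderm, 4.03-fold [3.69 to 4.40], and Otx2, an anterior homeobox factor, 3.49-fold [3.30 to 3.69].

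Several of the same factors set the members apart from the streak and the visceral endoderm sets in different ways. Foxa2 had 27.8 CPM in the streak set and 34.3 in visceral endoderm, and Hhex 10.3 and 21.6. Prdm1 differed little from visceral endoderm, with 146 CPM in members and 124 in that set. Summed, the factor list had 1652 CPM in the node set, the highest of the comparison sets, against 3451 in members. Mixl1, a homeobox factor of the streak, was 2.08-fold higher in members than in the others (79.4 CPM) but had 243 CPM in the streak set, for which it was also a chosen gene. Eomes, a T-box factor upstream of endoderm, was 1.53-fold higher (215 CPM) with 353 CPM in the streak set. Gata4 (2.08-fold lower; 75.5 CPM in members and 444 in visceral endoderm) and Foxa3 (2.20-fold lower on 11 UMIs), factors of visceral endoderm and of the later gut, were among the lower genes of the list.

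Thinned to 3000 UMIs, Lhx1 was seen in 86.6% of members (95.4% unthinned), Otx2 in 59.4% (92.0%), Gsc in 47.7% (79.4%), Foxa2 in 36.6% (70.9%), Sox17 in 34.6% (63.7%) and Hhex in 34.3% (65.7%). The thinned shares in extraembryonic ectoderm nuclei were 9.43% for Lhx1, 4.29% for Otx2, 2% for Gsc, 2% for Foxa2, 2.29% for Sox17 and 1.71% for Hhex. Across members the pair Cer1 and Sox17 had a Pearson r of 0.54, Sox17 and Prdm1 0.48, and Gsc and Lhx1 0.41, whereas Lgr5 and Sox17 had -0.48 and Lgr5 and Prdm1 -0.39. These coefficients describe 350 nuclei of 1 library in ln(1 + UMIs per 10000), and those with Cer1 or Lgr5 involve genes that chose the nuclei.

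**Figure D2:**
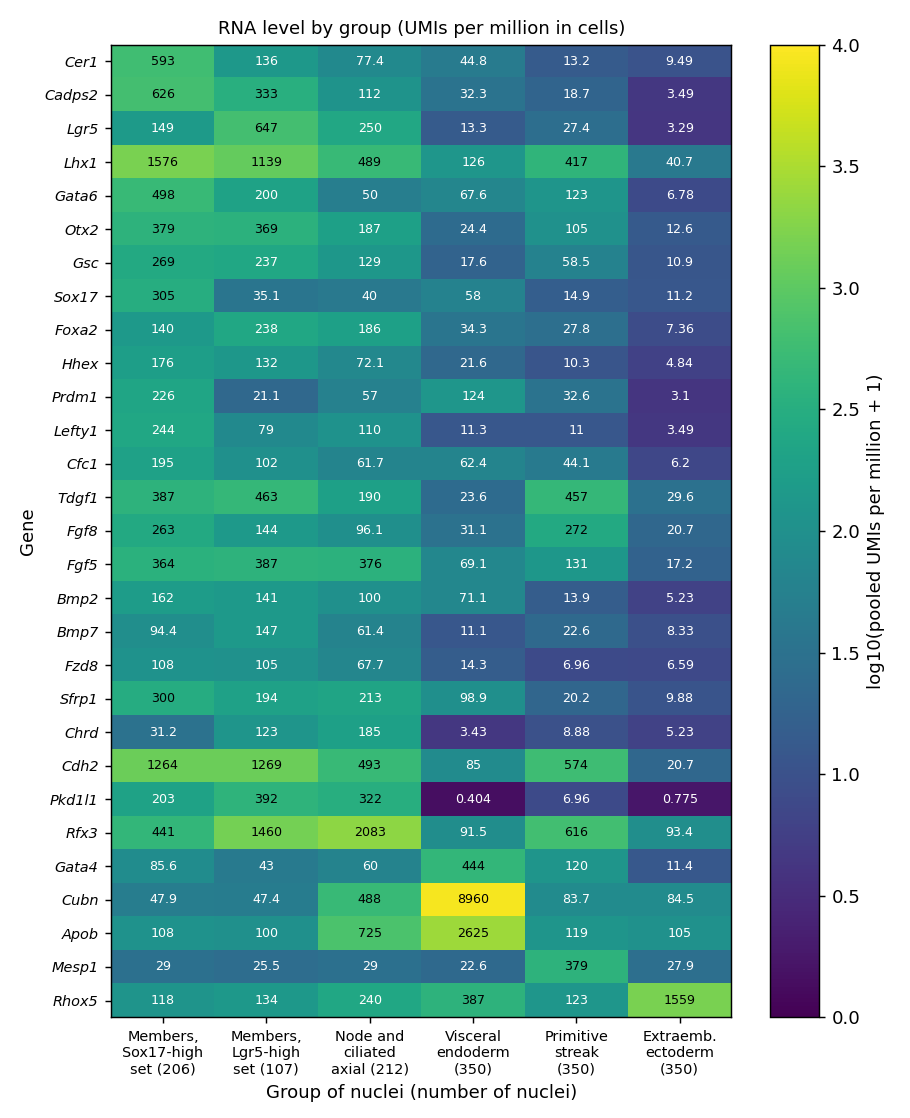
Pooled RNA level of 29 genes (rows; colour is log10 of CPM plus 1, and the number in each cell is CPM) in the 2 accessibility sets of members described below and in 4 comparison sets (columns, with numbers of nuclei). Lhx1, Gsc, Hhex and Otx2 are high in both member sets, Sox17 and Prdm1 are higher in the Sox17-high than in the Lgr5-high set, Lgr5, Chrd and Rfx3 the reverse, and Cubn and Apob are highest in the visceral endoderm set.

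Secreted antagonists and signalling components were next. In the Nodal list, 3 of 15 tested genes were at least 2-fold higher and 1 lower, beside 2.7% and 8.6% of all tested genes. Lefty1, a secreted inhibitor of Nodal, had 179 against 17.5 CPM, or 10.2-fold [9.35 to 11.1]. Its spread was wide, with 1 nucleus holding 10.2% of its UMIs in members. The co-receptors Cfc1 and Tdgf1, which Nodal needs to signal, were 4.63-fold and 2.50-fold higher, at 151 and 385 CPM. Nodal itself had 31.3 against 26.7 CPM, a fold of 1.17 whose interval [0.970 to 1.40] included 1, and the related inhibitor Lefty2 had 17.2 against 27.5 CPM. Pcsk6, a protease that processes Nodal, was the lower gene, at 2.05-fold.

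In the Wnt list, 5 of 24 tested genes were higher and 2 lower, beside 2.7% and 8.6% of all tested genes, and the median log2 fold was -0.03. The receptors Fzd8 (98.4 against 14.3 CPM; 6.86-fold) and Fzd5 (2.08-fold), the secreted antagonist Sfrp1 (246 against 57.5 CPM; 4.28-fold), the Wnt target Sp5 (3.01-fold) and the nuclear effector Tcf7l2 (1045 against 416 CPM; 2.51-fold) were higher. The ligands Wnt5a and Wnt8a were 3.22-fold and 4.60-fold lower on 18 and 3 UMIs, and the feedback target Axin2 had 45.2 against 46.8 CPM. The list of secreted and surface proteins gave 6 genes higher and 3 lower of 17 tested, and its sum was not higher, at 1808 CPM in members, 1872 in the others and 3782 in visceral endoderm. The lower genes were Clic6 (18.7 against 91.2 CPM; 4.86-fold lower), Spink1, a protease inhibitor (301 against 625 CPM; 2.08-fold lower), and the BMP antagonist Nog (3.93-fold lower on 3 UMIs). Of the higher genes, Dkk1 (94.0 against 39.3 CPM; 2.39-fold) and Frzb (79.6 against 33.5 CPM; 2.38-fold) encode Wnt antagonists, Shisa2 (3.36-fold) a protein that retains Wnt and FGF receptors, and Chrd (57.5 against 11.05 CPM; 5.21-fold) the BMP antagonist chordin. Sema6d, a transmembrane semaphorin, was 5.52-fold higher and the chemokine receptor Cxcr4, used by definitive endoderm, 2.61-fold (27.0 against 10.3 CPM).

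In the BMP list 2 of 13 tested genes were higher and 4 lower, and in the FGF list 2 of 16 were higher and 4 lower. The shares over all tested genes were 2.7% higher and 8.6% lower. The ligands Bmp7 (103 against 15.2 CPM; 6.83-fold) and Bmp2 (146 against 31.3 CPM; 4.65-fold) were the higher BMP genes, while Bmp4, a ligand of extraembryonic ectoderm and mesoderm, was 2.14-fold lower. Among FGF ligands, Fgf8 had 210 against 71.0 CPM (2.96-fold) and Fgf5 348 against 136 CPM (2.56-fold), and the receptors Fgfr3 and Fgfr4 were 4.55-fold and 8.44-fold lower on 8 UMIs each. Fgf8 was a chosen gene of the streak set, where it had 272 CPM, and Fgf5 had 376 CPM in the node set, above its level in members.

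Genes of the node and notochord were present although the gate had removed nuclei with Noto, Shh or Foxj1. Of 9 tested, 2 were higher and 1 lower, beside 2.7% and 8.6% of all tested genes. Pkd1l1, a channel-like protein of nodal cilia, had 247 against 16 CPM, or 15.4-fold [14.3 to 16.7], and 322 CPM in the node set. Rfx3, a factor of cilium genes, had 758 CPM in members, 462 in the others and 2083 in the node set, and T (brachyury) 52.1, 39.4 and 96.4 CPM. Chrd had 185 CPM in the node set, above its 57.5 CPM in members.

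Visceral endoderm genes, which resemble those that the score subtracted, were low. All 15 tested of 16 were at least 2-fold lower than in the others, beside 8.6% of all tested genes, with a median log2 fold of -2.38. Summed, they had 667 CPM in members, 676 in the streak set, 678 in extraembryonic ectoderm and 11202 in visceral endoderm. The level in members thus lay at that of nuclei from other layers. Apob (108 against 641 CPM) and Apoa1 (156 against 478 CPM) encode apolipoproteins, Dab2 (69.6 against 495 CPM; 7.11-fold lower) and Lrp2 (34.2 against 252 CPM; 7.38-fold lower) belong to the endocytic machinery, and Ttr (128 against 336 CPM) encodes a thyroid hormone carrier.

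Genes of the primitive streak were in part higher, with 3 of 9 tested at least 2-fold higher (Fgf8, Mixl1 and Sp5), 1 lower (Cdx2) and a sum of 735 against 412 CPM. Markers of several other cell types in the embryo were low. Beside the list counts in this paragraph stand shares over all tested genes of 2.7% higher and 8.6% lower. No gene was at least 2-fold higher among nascent and embryonic mesoderm (8 of 11 tested lower), extraembryonic mesoderm (5 of 5 lower), parietal endoderm (5 of 8), ectoplacental cone (4 of 6) and extraembryonic ectoderm (8 of 8). Mesp1, a factor of nascent mesoderm, had 34.2 CPM in members and 379 in the streak set. The extraembryonic ectoderm genes summed to 205 CPM in members, 206 in the streak set and 2916 in extraembryonic ectoderm. The haemato-endothelial list had 0 of 8 genes higher, 1 lower and a sum of 136 CPM against 147, but most members had little of it. Their median was 0 UMIs per 10000 against 0.507 in the others, and the sum was 675 CPM in the 37 members outside the leading accessibility cluster described below and 60.9 CPM in the other 313. In decidua and immune cells, 1 of 8 genes was tested and Hoxa10, Ptprc, Lyz2 and Hand2 had 0 UMIs. The germ cell list was higher in sum, at 303 against 99.7 CPM. Among its 4 tested genes, Prdm1 and Kit, a receptor tyrosine kinase (136 against 17.1 CPM; 7.94-fold), were higher and Tfap2c was 2.83-fold lower, while the germ cell marker Dppa3 had 0 UMIs. Of 12 epiblast genes, 1 was higher (Fgf5) and 4 were lower.

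Of 16 tested genes of epithelial and mesenchymal state, 2 were at least 2-fold higher and 3 lower, beside 2.7% and 8.6% of all tested genes. Their median log2 fold was -0.19. Cdh2, the N-cadherin known from mesenchymal cells, had 1214 CPM in members, 283 in the others and 85.0 in visceral endoderm, or 4.29-fold over the others [4.16 to 4.42]. The primitive streak and node sets lay between, at 574 and 493 CPM. A thinned UMI of it was found in 87.7% of members (97.1% unthinned) and in 4.57% of extraembryonic ectoderm nuclei. Cdh1, the epithelial cadherin, had 224 against 256 CPM and Epcam, an epithelial adhesion protein, 241 against 285. Esrp1, an epithelial splicing factor, was 2.33-fold higher and Snai1, a repressor of epithelial genes, 2.17-fold lower. The tight junction genes Cldn4 and Ocln were 3.21-fold and 2.20-fold lower, on 18 and 42 UMIs. Of 12 S phase and 14 G2 and M phase genes, 0 differed at least 2-fold.

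Outside all lists, the 15 genes with the highest folds were led by Six3 (ENSMUSG00000038805; chromosome 17, starts 85613608 to 85621031), a homeobox factor of the anterior head. It had 42.6 against 2.80 CPM, or 15.2-fold [12.6 to 18.3], and 13.3 CPM in the node set. Rasgef1b had 218 against 14.5 CPM (14.96-fold), Mecom, a zinc finger factor, 561 against 44.2 CPM (12.7-fold [12.1 to 13.3]), and Tll1, a protease that cleaves chordin, 199 against 18.6 CPM (10.6-fold). Erbb4, a receptor for neuregulins, had 107 against 11.8 CPM, with 9.67 in the node set and 1.41 in visceral endoderm. Zfhx4, Tafa2, Lama2, Epha7, Spock3, Tiam2, Dpyd, Ntn1, Ppp2r2b and Slit1 followed, from 8.48-fold to 6.25-fold. Ntn1 and Slit1 encode guidance proteins and Epha7 an ephrin receptor. Ntn1 had 431 against 66.5 CPM, and 87.1% of members had a UMI of it at full depth. Of these 15 genes, all but Erbb4 and Tafa2 also had more CPM in the node set than in the others, with 203 for Tll1, 236 for Mecom, 235 for Ntn1, 155 for Tiam2 and 126 for Rasgef1b there.

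Among the 10 lowest genes outside the lists, Abcc2, a transporter, had 17 UMIs in members and was 20.5-fold lower [12.8 to 35.2], at 431 CPM in visceral endoderm. Folr2, a folate receptor, was 12.7-fold lower on 5 UMIs and Hnf1aos1, an antisense transcript whose reads cannot be told from those of its partner without strand, 10.8-fold on 7 UMIs. The remaining 7 genes had 0 UMIs in members. Set against a floor of 3 counts over the members, Gm43449 was at least 7.67-fold lower, Gm29571 at least 5.18-fold, Fendrr, a noncoding RNA of mesoderm, at least 4.50-fold, Ccdc180 at least 3.95-fold, Plg at least 3.59-fold, and Kcnh6 and Tex13b at least 3.49-fold each. The exact 95% intervals of these 7 genes begin lower, from 2.82-fold for Kcnh6 to 6.23-fold for Gm43449.

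Chromatin accessibility, which entered the choice only through the minimum of 2000 peak counts and not the score, placed most members together. Of the 15 nearest neighbours of a member by accessibility, 51.0% were members, compared with 1.66% for the others and a share of members in the depth range of 3.02%. At least 8 of the 15 neighbours were members for 215 members, and 25 members had none. Of the neighbours that were not members, 26.3% carried a UMI of Noto, Shh or Foxj1, against 6.24% of the others.

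Clusters built from peaks alone gave 15 groups, and 313 members (89.4% [85.7 to 92.4]) fell into 1 of them. It held 982 nuclei, of which members made up 31.9% and 234 had a UMI of Noto, Shh or Foxj1, and its leading RNA list was that of node and notochord. Leading lists were ranked by a mean log2 value (2.38 here) and not by summed RNA, so a list with little RNA can lead. The other 37 members were spread over 9 more clusters, among them 11 in one led by mesoderm genes, 9 in one led by haemato-endothelial genes and 5 in one led by extraembryonic ectoderm genes, while 1 lay in a cluster led by the list of anterior streak and endoderm secreted and surface proteins. Scrublet had marked 9 of these 37 and 7 of the 313. The 37 had a median score of 0.418 against 0.606, a haemato-endothelial sum of 675 against 60.9 CPM, a mesoderm sum of 826 against 277 CPM and a transcription factor sum of 2000 against 3653 CPM. With the 313 alone, 361 genes were at least 2-fold higher and 1220 lower.

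**Figure D3:**
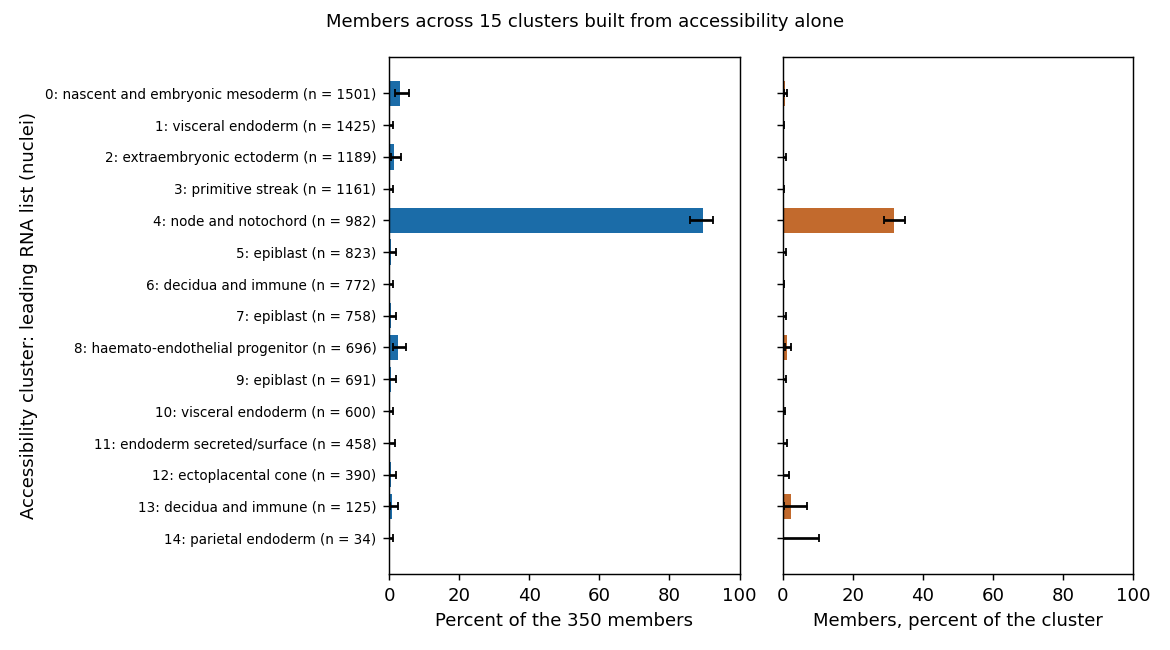
Share of the 350 members in each of 15 clusters built from accessibility alone (left, percent of members) and members as a percent of each cluster (right), with exact 95% binomial intervals. Clusters are named by the RNA list with the highest mean log2 value in them and by their number of nuclei. This value is not the summed RNA of a list, so a name is not a cell type. One cluster holds 89.4% of members, and members make up 31.9% of it.

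At a finer resolution the members of that cluster fell into a pair of groups with different endoderm and axial genes. At resolution 2, which gave 29 clusters in all, 206 members lay in a cluster of 365 nuclei and 107 in one of 550, called here the Sox17-high and the Lgr5-high set. Gate genes were seen in 13 nuclei of the first cluster and 209 of the second, all of them non-members. This division was taken up after 4 partitions and their RNA had been seen, and its border moved with the settings. The sets numbered 203 and 109 with 19 singular vectors (199 and 102 of them shared), 185 and 128 with another seed (185 and 107 shared), and 288 and 25 at resolution 1.5. Median depth was 10731.5 UMIs in the Sox17-high and 9525 in the Lgr5-high set, with 4 and 3 Scrublet marks.

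Of 9771 genes tested between the sets, 268 were at least 2-fold higher in the Sox17-high set (2.74%) and 319 in the Lgr5-high set (3.26%). Genes named in these comparisons were chosen after their values were seen. Sox17 had 305 against 35.1 CPM, or 8.68-fold [6.31 to 12.3], and its level in the Lgr5-high set was close to the 29.3 CPM of the others. Prdm1 had 226 against 21.1 CPM (10.7-fold [7.12 to 16.9]), Cer1 593 against 136 CPM (4.36-fold [3.69 to 5.18]) and Lefty1 244 against 79.0 CPM (3.09-fold). Gata6 (498 against 200.1 CPM; 2.49-fold) and Cxcr4 (39.5 against 7.90; 5-fold) were higher in the same set. So were Hs3st3b1, a heparan sulfate enzyme (107 against 7.02 CPM; 15.2-fold [7.59 to 35.6]), and Eda, the ligand ectodysplasin (1165 against 215 CPM; 5.42-fold [4.75 to 6.20]). Similar levels were read in other sets, for Eda 1267 CPM in visceral endoderm and for Hs3st3b1 104 CPM in extraembryonic ectoderm and 86.1 in the streak set. Zfp804a and Ermn had 0 UMIs in the Lgr5-high set and 45 and 44 in the Sox17-high set. However, 1 nucleus held 34.0% of the Zfp804a UMIs of members, and both genes were too rare to be tested between members and others.

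The Lgr5-high set carried more RNA of node and notochord genes, for which 5 of 7 tested genes were higher in it and 0 in the other set. Over all genes tested between the sets, the shares were 3.26% and 2.74%. Lgr5 had 647 against 149 CPM (4.33-fold [3.81 to 4.94]) and Tll1 479 against 86.9 CPM (5.51-fold [4.68 to 6.52]). Chrd had 123 against 31.2 CPM (3.94-fold), Rfx3 1460 against 441 (3.31-fold), T 84.3 against 32.1 (2.63-fold) and Foxa2 238 against 140 (1.70-fold). Pkd1l1 had 392 against 203 CPM, and Lef1, a nuclear effector of Wnt, 325 against 101 CPM (3.23-fold). Cfap69, a cilium gene, was 12.3-fold higher [5.16 to 35.7] on 37 against 6 UMIs, and Lrriq1 9.40-fold [4.69 to 20.9] on 47 against 10. Sema6a, a semaphorin, was 6.01-fold higher, at 391 against 65.0 CPM. Its level in the Lgr5-high set was below the 536 CPM of the others, 663 in the node set and 447 in the streak set. The node set had 2083 CPM of Rfx3, 185 of Chrd and 249.9 of Lgr5.

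Other genes of the region differed little or less than 2-fold between the member sets. Otx2 had 379 CPM in the Sox17-high and 369 in the Lgr5-high set, a fold of 1.03 [0.915 to 1.16], and Gsc 269 and 237 CPM, a fold of 1.14 [0.982 to 1.32]. Cdh2 had 1264 and 1269 CPM, Pax7 44.3 and 50.04, and Pdzrn4 115 and 112. Hhex (1.34-fold) and Lhx1 (1.38-fold) were slightly higher in the Sox17-high set. Of the 15 transcription factors tested, 6 were at least 2-fold higher in the Sox17-high set and 0 in the Lgr5-high set. The shares over all genes tested between the sets were 2.74% and 3.26%.

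Set against the label, Sox17 and Cxcr4, both known from definitive endoderm, were high in the 206 members of the Sox17-high set, while in the other 107 they lay at 35.1 and 7.90 CPM beside 29.3 and 10.3 CPM in the others. Both markers were picked after their values were seen. Foxa2, shared by endoderm, node and notochord, was higher in the Lgr5-high set, and Gsc and Otx2 differed little, so these genes do not settle a tissue. The Lgr5-high set is called by Lgr5, a score gene that was higher in it, and is not named definitive endoderm here. RNA was also read in nuclei of the same clusters that were neither members nor carriers of a gate gene, 146 in the Sox17-high cluster and 234 in the Lgr5-high cluster. These nuclei share the library and the clusters that define the sets, so a shared direction is a description and no independent support. The 12 genes on each side whose intervals between the member sets lay farthest from 1, among them Sox17, Prdm1, Cer1, Lgr5 and Tll1, all lay in the same direction there, as did the 11 on each side that were not score genes. Of all genes at least 2-fold apart between the member sets, 222 of 268 and 294 of 319 kept the direction, beside 64.2% of the 9771 tested. Sox17 had 278 against 12.1 CPM (23.1-fold), Prdm1 222 against 5.83 (38.1-fold) and Cer1 297 against 33.7 (8.80-fold), while Lgr5 had 30.8 against 166 CPM (5.40-fold the other way), Chrd 18.5 against 78.3 and Foxa2 123 against 207. Gsc had 154 and 153 CPM, while Hhex had 101 against 35.0 CPM (2.89-fold [2.22 to 3.79]) and Lhx1 916 against 581 (1.58-fold), both wider apart than between the member sets. These nuclei had scored below the members, so lower levels of the added genes in them follow from the choice.

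**Figure D4:**
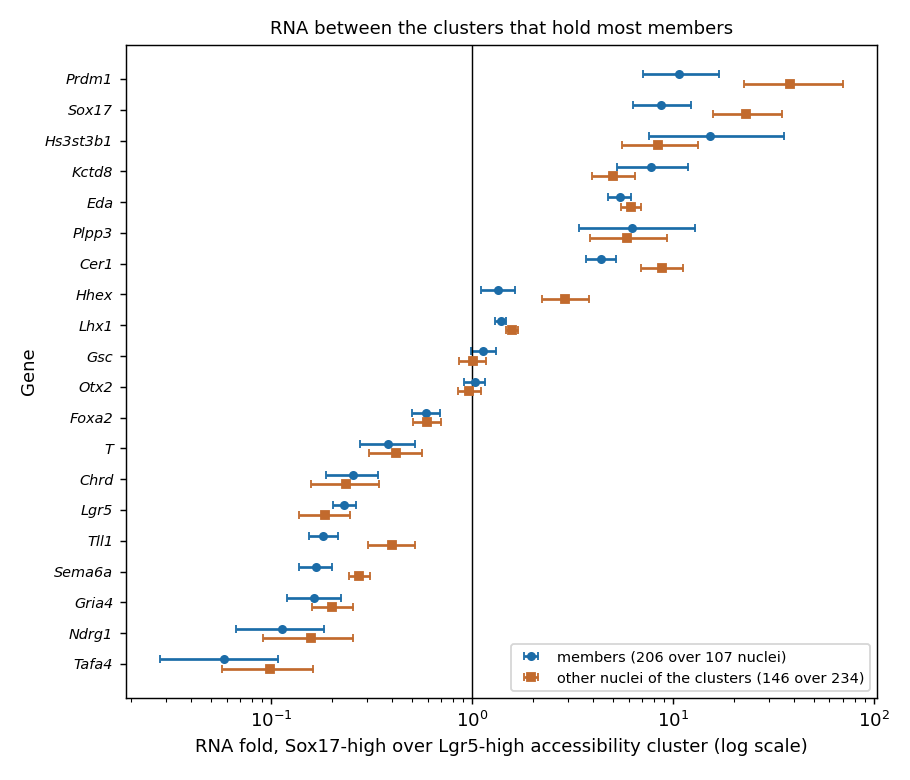
RNA fold between the 2 accessibility clusters that hold most members (log scale; right of 1 is higher in the Sox17-high cluster), for members (circles) and for the other nuclei of the clusters without a gate gene (squares), with exact 95% intervals for counting error. Prdm1 and Sox17 lie farthest to the right in the squares, Gsc and Otx2 lie near 1 in both, and T, Chrd and Lgr5 lie to the left in both.

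Peaks more open in members lay mostly away from promoters. Of 68620 peaks tested, 3585 were at least 2-fold higher in members (5.22%) and 8033 lower (11.7%), with a median log2 fold of -0.10. Peaks at promoters made up 20.65% of those tested, 3.74% of the higher and 6.22% of the lower ones. The higher peaks summed to 47976 fragments per 1000000 (FPM) in members, 52963 in the Sox17-high and 46475 in the Lgr5-high set. They were called in these same members, so a high sum there was set by the choice of peaks. The node set came nearest among the comparisons, at 34764, followed by streak at 19465, visceral endoderm at 19410 and extraembryonic ectoderm at 6640.

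The peak with the highest fold, chr4:9312849-9313718 inside Clvs1, had 31.4 against 2.90 FPM, or 10.8-fold [8.70 to 13.4], and was open in 24.9% of members and 2.74% of the others. Peaks at chr4:41637014-41637875 inside Dnaic1 (9.82-fold), chr16:35047924-35048776 inside Hacd2 (9.29-fold), chr19:47403771-47404553 inside Sh3pxd2a (9.22-fold) and chr2:173161664-173162579, 2847 bp from Pck1 (8.92-fold), came next. The tenth, chr12:25011481-25012382 inside Kidins220, was the most widely open of them, in 33.1% of members and 4.63% of the others. In the node set these peaks lay between members and others, with 18.5 FPM at the Clvs1 peak and 33.5 at the Kidins220 peak. Coordinates are those of the files, in mm10 per the submitters' processing notes, and genes are protein-coding genes of RefSeq whose body holds the peak.

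Over all tested peaks, 5.22% were called higher and 11.7% lower. Near the 7 added genes, all had at least 1 higher peak within 100000 bp of a start, on as few as 3 tested peaks, and these counts are descriptions. Pax7 had 8 of 31 tested peaks higher, Pdzrn4 4 of 10, Cer1 3 of 5, Scel 2 of 5, Cadps2 2 of 3, and Lgr5 1 of 4, while Samd3 had 1 higher and 1 lower of 3. At Cer1, the peak over the start (chr4:82884883-82885723) had 27.3 against 6.48 FPM, or 4.22-fold [3.39 to 5.19], and a peak 1148 bp upstream (chr4:82885893-82886705) was 5.26-fold higher [4.10 to 6.67]. At Cadps2 a peak 36648 bp from a start (chr6:23875621-23876517) was 5.88-fold higher and 3.22-fold higher in the Sox17-high than in the Lgr5-high set [1.67 to 6.79]. A Pdzrn4 intron peak (chr15:92524537-92525443) was 4.38-fold higher, and a peak 5602 bp from a Pax7 start (chr4:139838174-139838967) 3.63-fold. The last had 12.5 FPM in members and 7.01 in the streak set. Some of these peaks were nearly as open in a comparison set. The Pax7 peak chr4:139753499-139754345 had 21.9 FPM in members and 20.2 in the streak set. At the Cer1 start the node set had 21.5 FPM.

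Peaks were then read near 7 factors and antagonists chosen after their RNA had been seen, beside shares over all tested peaks of 5.22% higher and 11.7% lower. Gsc had 8 higher and 1 lower of 18 tested peaks, Lefty1 4 of 28 higher, Lhx1 4 higher and 1 lower of 22, Foxa2 4 higher and 1 lower of 21, Hhex 2 of 7 higher, Prdm1 2 higher and 2 lower of 16, and Sox17 1 higher and 1 lower of 7. Of these, a peak 8468 bp from the start of Lefty1 (chr1:180926143-180926966) had the highest fold, at 7.18 [5.59 to 9.12], and one 82090 bp from Gsc (chr12:104554875-104555777) had 4.57 [3.54 to 5.82]. The peak over the Gsc start (chr12:104472854-104473760) was open in 39.7% of members and 18.3% of the others. The accessibility sets differed near some of these genes. A peak 9492 bp from a Sox17 start (chr1:4506411-4507281) had 15.7 FPM in the Sox17-high and 2.45 in the Lgr5-high set (6.40-fold [2 to 32.7], on 32 and 3 fragments). The visceral endoderm set had 17.99 FPM at this peak and the node set 7.31. A pair of peaks 38093 and 53077 bp from Foxa2 (chr2:148084619-148085505 and chr2:148099595-148100497) went the other way, at 8.82 against 27.0 and 7.35 against 33.5 FPM. These sets were themselves built from peaks, so their peak values are descriptions.

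Promoters followed the RNA in part. Over windows that reached 1000 bp before and 100 bp past a start, 286 of 9604 tested promoters had an interval wholly above 1 in members (2.98%) and 1515 one wholly below 1 (15.8%). Those 9604 have a RefSeq start. Lgr5, Sox17, Gata6 and Mixl1 lack one in the table used, and their promoters were read within 1000 bp to each side of the starts in the files. Among the 7 added genes, 4 had an interval above 1 and 0 below. Cer1 promoter peaks had 49.0 against 10.6 FPM (4.62-fold [3.93 to 5.40]), Samd3 28.2 against 6.99 (4.03-fold [3.25 to 4.94]), Scel 20.6 against 7.32 (2.81-fold [2.19 to 3.55]) and Cadps2 22.7 against 15.2 (1.496-fold [1.19 to 1.86]). The other 3 did not differ beyond counting error in these windows. Lgr5 promoters were at 1.01-fold [0.844 to 1.21], Pax7 at 0.982-fold [0.761 to 1.25] and Pdzrn4 at 1.20-fold [0.900 to 1.57]. Their RNA folds in members, 12.9, 48.2 and 14.4, were set by the choice of nuclei. In nuclei ranked without each gene in turn, the RNA folds were 8.39, 31.2 and 11.1. With windows of 2000 bp to each side, Pdzrn4 was 1.85-fold higher [1.53 to 2.22], while Lgr5 and Pax7 stayed at 1.01-fold and 0.935-fold.

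Of 16 transcription factors with a promoter peak, 10 had an interval above 1 and 0 below, and the median log2 fold was 0.45. Gsc was at 2.45-fold [2.10 to 2.84], Prdm1 at 1.69-fold [1.41 to 2.01] and Mixl1, Otx2, Foxa1 and Hhex between 1.68-fold and 1.52-fold. Gata6, Foxa2, Lhx1 and Sox17 lay between 1.48-fold and 1.30-fold, far below their RNA folds. In the visceral endoderm list, 0 of 16 promoters had an interval above 1 and 9 had one below. Among genes at least 2-fold higher in RNA, 175 of 231 promoters with a peak were more accessible in members (75.8%), compared with 165 of 768 for genes at least 2-fold lower (21.5%) and 27.7% of all tested genes.

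**Figure D5:**
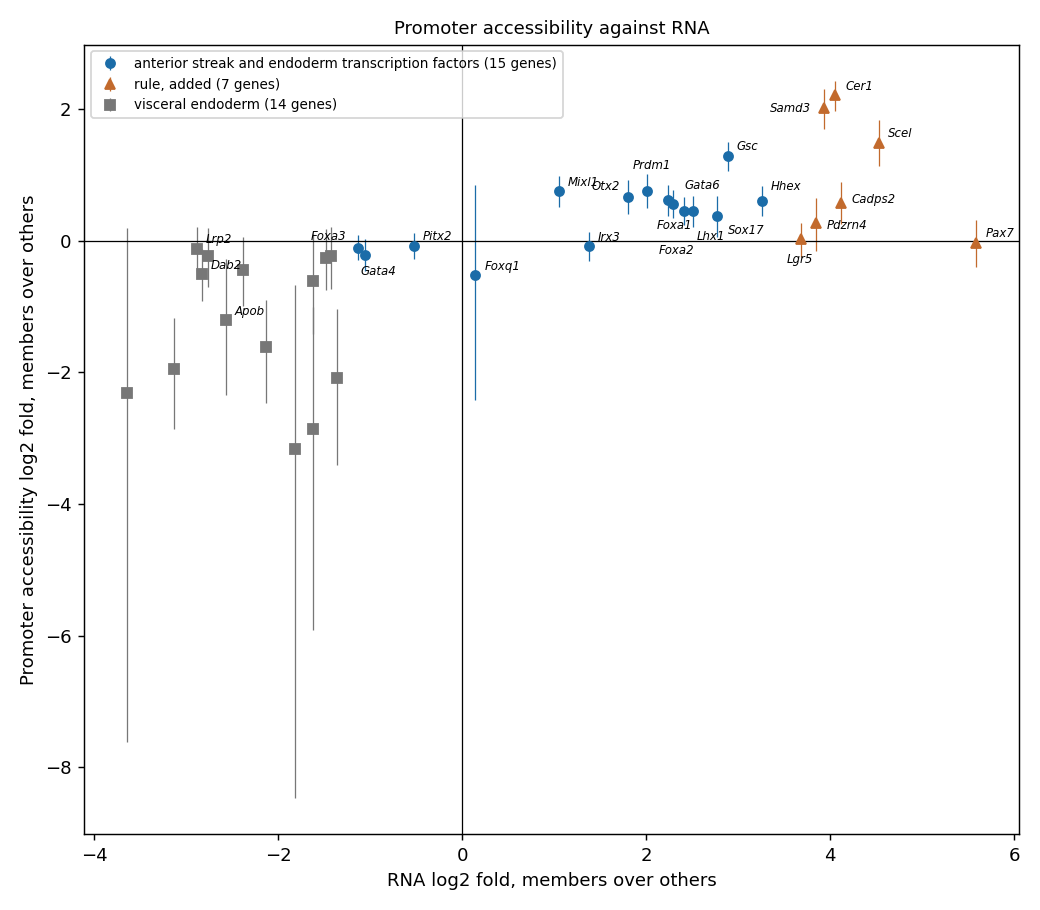
Promoter accessibility (vertical, log2 fold of members over others, with exact 95% intervals for counting error) against RNA (horizontal, log2 fold) for the 7 added genes (triangles), 15 of the 16 transcription factors (circles) and 14 visceral endoderm genes with at least 1 fragment in members (squares). Cer1, Samd3 and Scel lie highest, Pax7 and Lgr5 lie near 0 on the vertical axis, and the visceral endoderm genes lie to the left and below 0. RNA folds of the added genes were set by the choice of nuclei.

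The letters of the promoters were searched for 14 motifs on both strands in the 250 bases upstream of RefSeq starts, and a gene was counted when any of its starts held a match. The motifs were FOX (TGTTTAC), SOX (ACAAAG), SOX17 (ACAATGG), T-box (AGGTGTG), OTX and GSC (TAATCC), the GATA family with the letters AGATAA, LHX (TAATTA), a PAX7 homeodomain pair (TAAT and, after any 2 bases, ATTA), HNF4 (CAAAGTCCA), TCF and LEF (CTTTGAT), FOXH1 (AATCCACA), TEAD (CATTCC), ZIC (CAGCAGG) and CTCF (CCACNAGG). Some share letters, such as SOX, HNF4 and the reverse of TCF and LEF, or FOXH1 with OTX and GSC, so 1 stretch can be counted for more than 1 of them. SOX letters were in 20.8% of the 245 genes at least 2-fold higher in members, in 14.4% of 9959 tested genes and in 18.6% of 27025 RefSeq genes. T-box letters were in 8.57%, 4.53% and 5.88%, FOX letters in 4.08%, 2.69% and 3.54%, GATA letters in 12.2%, 6.88% and 11.4%, and LHX letters in 5.71%, 3.02% and 5.65% of the same groups. OTX and GSC letters were in 4.90%, 6.08% and 7.21%. The 812 genes at least 2-fold lower also lay above the tested share for several of these, with SOX letters in 15.9%, T-box in 6.40%, GATA in 8.50%, LHX in 4.93% and OTX and GSC in 7.14%, and ZIC letters were in 15.1% of them against 10.2% of the higher genes, so an excess over the tested genes was not confined to the higher genes. The LHX match in the Cer1 promoter and the FOX match in the Prdm1 promoter shown above are examples. Lgr5, Sox17, Lefty1 and Gata6 were not matched to a RefSeq promoter.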

How the data were processed

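Nuclei of pooled mouse embryos at E7.0 were read as 1 RNA and 1 accessibility library. The values are whole counts deposited by the authors for every barcode, UMIs for each of 32285 genes and counts for each of 229480 peaks, made with Cell Ranger ARC 2.0.0 on mm10 per the submitters' processing notes. The strand used in counting is not given in the sources used here, and 0 value columns were left unused. How peak counts relate to fragments is not stated, so each count was divided by 2 and rounded up to approximate fragments.

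The members, gene lists and comparison sets were chosen with earlier results of these data known. RNA was summed over the nuclei of a group and given as UMIs per 1000000 (CPM), and peaks as fragments per 1000000 (FPM). Genes and peaks with at least 10 counts expected in the members from their share over all nuclei of the comparison were tested, and called at 2-fold. Intervals on folds are exact conditional binomial 95% intervals (Clopper-Pearson), as are those on shares, and cover counting error only, since there is no replicate. Shares of nuclei with a UMI were taken after thinning each nucleus to 3000 UMIs. Calling was tested on simulated counts that had counting error only. They held no variation between nuclei or embryos and no choice of members by RNA, so they check the calculation alone.

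Accessibility clusters used TF-IDF scaling of 225001 peaks, 29 singular vectors, 15 neighbours and Leiden clustering at resolution 1, or 2 for the finer division (scanpy 1.11.5, leidenalg 0.10.2, scikit-learn 1.9.0). Scrublet marked doublets, and marked barcodes were kept. Python 3.11.15, numpy 2.4.6, scipy 1.17.1 and pandas 2.3.3 were used.

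Named genes were the list genes with at least 50 UMIs in the members or at or near 0 there, and outside the lists the 15 highest and 10 lowest folds with at least 100 UMIs in the higher group and no nucleus above 20% of the UMIs of the members, leaving out mitochondrial genes, Xist and Tsix. Named peaks were the 10 highest folds and the called peaks within 100000 bp of the 7 added genes. Other named genes with fewer UMIs are members of the lists. The genes between the accessibility sets and the 7 further genes with peaks were chosen after their values were seen. Sequences at peak centres were planned, but a genome was not used here, so promoter sequences come from RefSeq (GRCm38.p6). Promoter accessibility was read around RefSeq starts, or within 1000 bp of the starts in the files for list genes without one. Of the files' symbols, 20267 matched, and 78.5% of them had a file start within 50 bp of a RefSeq start. A gene withheld from the text is counted in its list but not reported here. Alternatives are given in the closing section.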

Additional observations from a re-analysis of the deposited data

How the results depend on the processing

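Embryos were pooled into 1 library per assay, so variation between embryos was not measured, and a batch could not be separated from the nuclei. RNA and accessibility were paired within each nucleus, but no pairing across samples or embryos could be analysed because each assay has 1 library. No gene fold of at least 2 changed direction among 1510 gene folds under alternatives, and 1289 of them stayed within the interval of the reported value. With the 200 highest scores as members, 1593 peaks were at least 2-fold higher and 3884 lower, 41.5% of neighbours were members, 96.5% of members lay in the leading cluster, and 201 genes were higher in the Lgr5-high set. With the 500 highest, 48.8% of neighbours were members and the leading cluster held 77.8%. Without a filter on low values, 2200 genes were higher and 1842 lower in members. With 20 expected fragments as the minimum, 1005 peaks were higher and 2169 lower. At resolution 2 the cluster with the most members held 58.9% of them, and at resolution 1.5 the smaller set of 25 nuclei had 107 genes higher, with no value for the Cxcr4 fold because that set had 0 UMIs of it. Promoter windows of 2000 bp to each side gave 5 added genes above 1, with Pdzrn4 as the fifth. Unthinned, Foxa2 was seen in 70.9%, Sox17 in 63.7% and Gsc in 79.4% of members. The reasons for these shifts were not tested beyond what each setting changes by construction. Without the barcodes marked by Scrublet, 353 genes were higher and 1141 lower, and the leading cluster held 91.6% of members. The other partitions and the count within the leading cluster were chosen after seeing the data.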
